A study of Mus musculus with 6 samples.

Results

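Complement is a set of plasma and cell-surface proteins that marks targets for clearance and can open pores in their membranes. In the classical pathway, C1q binds a target and activates the proteases C1r and C1s, which cleave C4 and C2 to form an enzyme that cleaves C3. Serping1 encodes C1 inhibitor, which inactivates C1r and C1s, factor B takes the place of C2 in the alternative pathway, C7 is part of the terminal pore, and clusterin (Clu) blocks its insertion. The liver makes most of the plasma proteins, and fibroblasts and other mesenchymal cells make several of them locally.

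The complement genes described here are the 9 of these components and regulators outside the C1q subunits, C1ra, C1s1, Serping1, C2, C3, C4b, Cfb, C7 and Clu, taken by gene name from a table of 54532 genes. Each name matched 1 row. The 6 RNA-seq libraries are of MSCs (mesenchymal stromal cells, which grow attached and can be induced to bone, fat or cartilage) of mouse alveolar bone, the part of the jaw that holds the teeth, with 3 from Ccrl2-KO mice and 3 from WT mice. Ccrl2 encodes an atypical receptor that binds chemerin. Per the series' title and design text, cells of both genotypes were inflamed with TNFα and driven towards bone, although the table's columns carry the word Ctrl, which no label explains. Strain, age, sex, the way Ccrl2 was deleted, and whether each replicate came from its own mouse are not given in the sources used here, so the spread behind the p-values may be that of cultures and not of animals.

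Library totals were between 16225227 and 18616433 in KO and between 16114974 and 18244287 in WT, and the 3 counts that an observed 0 leaves possible equal 0.161 to 0.186 CPM (counts scaled by the library total), for counting error only. The targeted gene Ccrl2 had 0 counts in each KO library and 4, 3 and 0 counts in WT replicates 1, 2 and 3, which is too few to check the genotype labels. KO replicate 2 stood apart. On the first principal component, which held 52% of the variance, it lay at -66.6 while the other 5 libraries lay between -7.57 and 31, and it had 16428 genes with a count against 18928 to 19372 elsewhere. Without it Serping1 and C3 were called as with it, with log2 fold changes of -1.45 and -1.87 (adjusted p = 3.56e-06 and 6.04e-06, edgeR). The cultures carried stromal transcripts at high levels, with 21650 to 39330 CPM of Col1a1 in KO and 33430 to 41860 CPM in WT. They also carried macrophage transcripts, as described below, so that the counts of a whole culture do not show which cells made a complement transcript, and fewer cells of a type cannot be told apart from less RNA per cell.

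The comparison of KO with WT asks whether these transcripts differ between the genotypes. Within the set, C3, the central component, and Serping1, the C1 inhibitor gene, fell in KO, while the C1 protease genes C1ra and C1s1 did not pass the test. C4b, C2 and Clu had lower values in every KO library and did not pass, and Cfb and C7 were listed at 0 throughout. Of the 9 members, 7 had enough counts to be tested, and 2 of these were called lower and 0 higher at the threshold of 0.05 (quasi-likelihood test of edgeR, p adjusted over 13705 genes by Benjamini-Hochberg), where 2.31% of all tested genes were called lower, 0.365% higher and 2.67% in either direction. The 7 tested members had a median log2 fold change of -1.50 against 0.02 over all tested genes. In 6 of them every KO library lay below every WT library, as in 11% of all tested genes, and in 0 every KO library lay above, against 9.9%. C2 and C4b reached the filter on low counts in 3 WT libraries but in 1 KO library each, so they could enter the test only as genes high in WT. Both the counts and the median over the tested members include them and have to be read with that in mind.

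**Figure D1:**
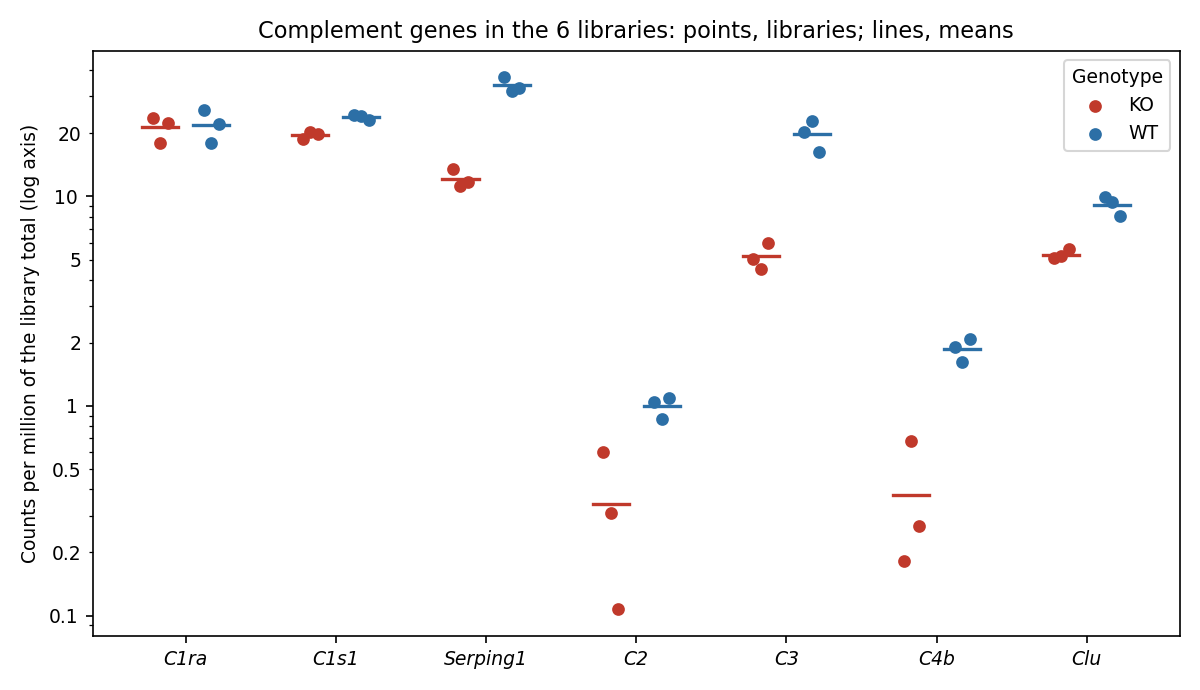
Level of each detected complement gene in every library, in CPM of the library total on a log axis, with KO left of WT, points for libraries and lines for means of 3. C1ra overlaps between the genotypes, C3 lies at 4.50 to 6.02 CPM in KO and 16.3 to 23.0 CPM in WT, and C2 and C4b lie at or below 0.678 CPM in all KO libraries.

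The C1 proteases came first in the order of the pathway. C1ra (ENSMUSG00000055172, chr6:124512405-124523443, plus strand, GRCm38) encodes C1r, which cleaves C1s. It stood at 23.7, 18.0 and 22.4 CPM in KO replicates 1 to 3 and at 25.9, 17.9 and 22.3 CPM in WT replicates 1 to 3. The groups overlapped fully, and the lowest value of each genotype was in its replicate 2. The log2 fold change was -0.07 ± 0.17 (SE, adjusted p = 0.873, edgeR). C1s1 (ENSMUSG00000038521, chr6:124530345-124542359, minus strand), the gene of the protease that cleaves C4 and C2, lies beside C1ra on the same chromosome. It stood at 18.8, 20.3 and 19.9 CPM in KO and at 24.6, 24.3 and 23.1 CPM in WT. Every KO library was below every WT library, by a small margin, and the log2 fold change of -0.31 ± 0.13 did not pass (adjusted p = 0.306, edgeR).

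Mouse C1ra and C1s1 each have a close copy, and reads shared with it could have been split or lost. Of the 50-base stretches of the C1ra transcript in GENCODE M21, 48.0% also occur in C1rb, and of those of C1s1 21.8% occur in C1s2. The copies themselves had few counts. C1rb had 2, 2 and 36 counts in KO replicates 1 to 3 against 1, 1 and 0 in WT, and C1s2 had 3 to 8 counts in KO and 1 to 5 in WT. The antisense gene Gm16567 covers 18.4% of the exonic bases of C1s1 and was listed at 0 in all libraries.

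Serping1 (ENSMUSG00000023224, chr2:84765387-84775444, minus strand) had the highest level of the set in WT and fell in KO. It stood at 13.6, 11.2 and 11.8 CPM in KO and at 37.0, 31.9 and 33.0 CPM in WT. The KO libraries lay close together and far below the lowest WT library. Serping1 averaged 12.2 ± 1.24 CPM in KO and 34.0 ± 2.69 CPM in WT (SD, n = 3 each), a log2 fold change of -1.50 ± 0.14 (SE, 2.84-fold lower in KO, adjusted p = 0.000346, edgeR). None of its 50-base stretches occurs in a transcript of another gene.

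Serping1 was set against the proteases its product controls by ratios within each library. Per length, which allows levels of different genes to be compared, Serping1 stood at 4.80 to 5.83 CPM per kilobase in KO and 13.7 to 15.9 in WT. C1s1 stood at 5.99 to 6.50 CPM per kilobase in KO and 7.39 to 7.85 in WT. The ratio of Serping1 to C1s1 was therefore 0.972, 0.738 and 0.797 in KO and 2.03, 1.77 and 1.92 in WT. In KO the inhibitor transcript was below the protease transcript in each library and in WT above it in each. If reads shared with other genes were lost, C1s1 and C1ra would read too low, so the side of 1 is not certain. The mean difference of the log2 ratio was -1.20 (two-sided exact permutation test, p = 0.10, the smallest that 3 against 3 libraries allow, and 0.14 after adjustment over 7 ratios). The ratio of Serping1 to C1ra gave the same order, with 0.735, 0.795 and 0.675 in KO and 1.83, 2.28 and 1.90 in WT (exact permutation p = 0.10). The ratio of C1ra to C1s1 overlapped between the genotypes, with 1.14 ± 0.20 in KO and 0.964 ± 0.17 in WT (exact permutation p = 0.40).

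**Figure D2:**
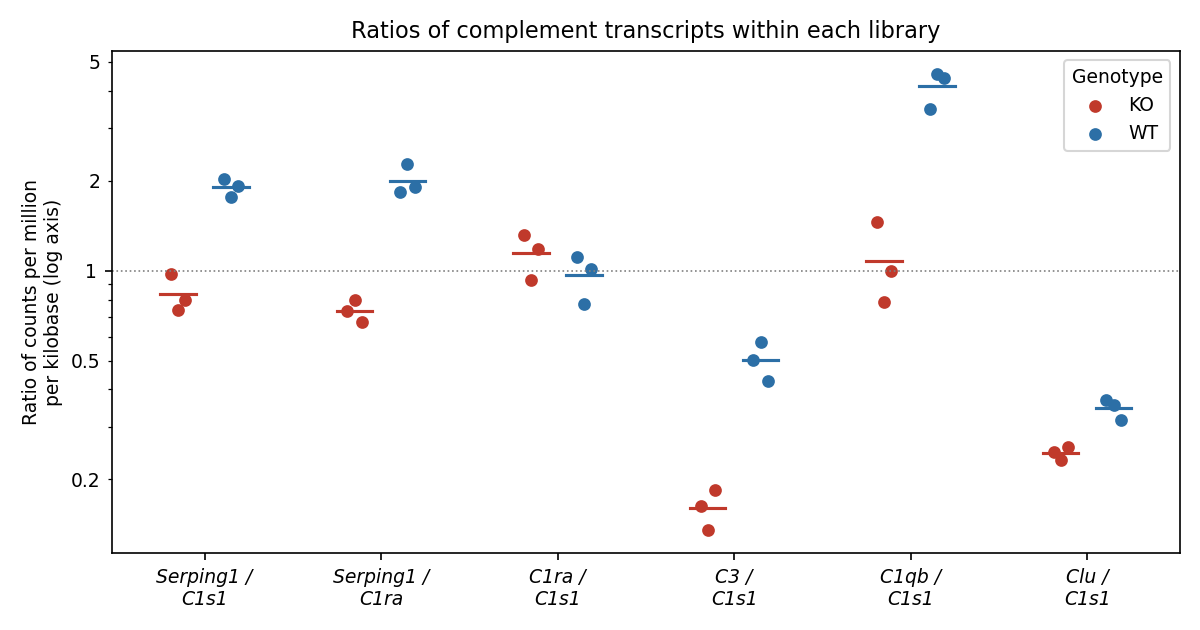
Ratios of complement transcripts within each library, in CPM per kilobase on a log axis, with KO left of WT, points for libraries and lines for means of 3. Serping1 to C1s1 lies below 1 in all KO libraries and above 1 in all WT libraries, and C3 to C1s1 lies at 0.135 to 0.184 in KO and 0.428 to 0.577 in WT.

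C4b and C2 encode the parts of the classical C3-cleaving enzyme and were close to the limit of detection. C4b (ENSMUSG00000073418, chr17:34728380-34743882, minus strand) had 3, 11 and 5 counts in KO replicates 1 to 3 and 33, 26 and 38 counts in WT replicates 1 to 3. The highest KO library, replicate 2, was still below the lowest WT library. The log2 fold change was -2.32 ± 0.55 (SE) and narrowly missed the threshold (adjusted p = 0.0553, edgeR). It passed with DESeq2 (adjusted p = 0.00604) and without KO replicate 2 (log2 fold change -3.03, adjusted p = 0.00419, edgeR), and over the 14 alternatives that tested it, all but the stricter filter, its adjusted p lay between 0.00419 and 0.238. Wherever the filter on low counts was used, C4b could enter the test only as a gene high in WT. Calls of C4b there are no support for a difference. Its near-identical neighbour C4a, which shares 34.6% of the 50-base stretches of C4b, had 0 to 3 counts per library.

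C2 (ENSMUSG00000024371, chr17:34862604-34898265, minus strand) encodes the protease part of that enzyme. It had 10, 5 and 2 counts in KO and 18, 14 and 20 counts in WT. All KO libraries were below all WT libraries, with 17 counts in sum in KO against 52 in WT. The log2 fold change of -1.58 ± 0.64 (SE) did not pass (adjusted p = 0.287, edgeR).

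C3 (ENSMUSG00000024164, chr17:57203970-57228136, minus strand), on which all pathways converge, fell in KO. It stood at 5.02, 4.50 and 6.02 CPM in KO and at 20.2, 23.0 and 16.3 CPM in WT. The highest KO library was below the lowest WT library by more than the whole KO range. C3 averaged 5.18 ± 0.771 CPM in KO and 19.8 ± 3.39 CPM in WT (SD, n = 3 each), a log2 fold change of -1.96 ± 0.20 (SE, 3.88-fold lower in KO, adjusted p = 0.000465, edgeR). None of its 50-base stretches occurs in a transcript of another gene. Relative to C1s1, C3 was at 0.161 ± 0.0249 per length in KO and 0.502 ± 0.0746 in WT (SD, n = 3 each, exact permutation p = 0.10). Relative to Serping1, the other called gene, its ratio overlapped between the genotypes, with 0.168 to 0.231 in KO and 0.223 to 0.326 in WT (exact permutation p = 0.20).

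The sequences before the start sites of C3, which fell, and C1s1, which did not pass, are shown because the genes act in 1 pathway and gave different results. They are the 250 bases before a RefSeq start (GRCm38.p6), chr17:57228137-57228386 on the minus strand for C3 and chr6:124542360-124542609 on the minus strand for C1s1. Capitals mark matches on either strand to TTNNGNAA, a core of sites of C/EBP factors, which act on acute-phase genes. RefSeq windows matched 4 of the 9 members, C1ra, C1s1, C3 and C7.
C3: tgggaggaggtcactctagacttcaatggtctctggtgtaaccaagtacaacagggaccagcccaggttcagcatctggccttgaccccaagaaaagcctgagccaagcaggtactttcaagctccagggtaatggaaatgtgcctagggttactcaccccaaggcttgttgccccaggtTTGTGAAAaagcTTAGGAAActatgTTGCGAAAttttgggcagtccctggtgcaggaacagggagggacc
C1s1: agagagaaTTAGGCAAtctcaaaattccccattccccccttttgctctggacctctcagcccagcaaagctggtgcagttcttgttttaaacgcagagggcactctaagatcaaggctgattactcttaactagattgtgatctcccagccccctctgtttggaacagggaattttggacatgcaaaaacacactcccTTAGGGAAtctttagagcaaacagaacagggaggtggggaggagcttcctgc
The C3 window held 3 matches, TTGTGAAA, TTAGGAAA and TTGCGAAA, which begin 70, 58 and 45 bases before the start, and the C1s1 window held 2, TTAGGCAA and TTAGGGAA, which begin 242 and 52 bases before it. RefSeq has another start for C1s1, whose window, chr6:124542322-124542571, held 1 match, TTAGGGAA, which begins 90 bases before that start. Of 32851 promoter windows of this length, 36.8% hold these letters at least once and 2.61% at 3 or more places. Neither of the windows printed held the NF-kB consensus (in 7.25% of windows), the STAT letters TTCNNNGAA (7.02%) or the interferon-response letters GAAANNGAA (7.13%). The C1ra and C7 windows, which are not printed, each held 2 matches to the C/EBP letters. These begin 72 and 29 bases before the RefSeq start of C1ra and 185 and 143 bases before that of C7. The C1ra window, chr6:124512371-124512620, lies mostly inside the gene span given above, which begins at 124512405. Both C1ra matches are thus within that span, and its window is not like those of C3 and C1s1. The C7 window also held 1 match to the STAT letters, TTCCCAGAA. C/EBP matches were found before the RefSeq starts of C3, which fell, and of C1s1 and C1ra, which did not pass. The matches describe letters, no binding was measured, and a link of the letters to the changes was not tested.

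Cfb and C7 had 0 counts in every library of both genotypes, but the zeros are not of the same kind. Cfb (ENSMUSG00000090231, chr17:34856374-34862518, minus strand) encodes factor B of the alternative pathway. Gm20547, a protein-coding gene that spans Cfb and part of C2 on the same strand, covers 79.5% of the exonic bases of Cfb and 42.8% of those of C2, and it was listed at 0 in all libraries too. No source used here says how reads that fit both genes were counted, so the zeros of Cfb cannot be read as a lack of its transcript, and the counts of C2 may be too low. C7 (ENSMUSG00000079105, chr15:4988762-5063740, minus strand) shares no exonic base and no 50-base stretch with another gene. For C7, 0 of 51373736 counts in KO and 0 of 51627953 in WT place its level below the limit of 0.161 to 0.186 CPM per library.

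Clu (ENSMUSG00000022037, chr14:65968483-65981547, plus strand), the gene of the chaperone clusterin, stood at 5.08, 5.18 and 5.59 CPM in KO and at 9.96, 9.43 and 8.06 CPM in WT. The genotypes did not overlap. Clu averaged 5.28 ± 0.268 CPM in KO and 9.15 ± 0.982 CPM in WT (SD, n = 3 each), and the log2 fold change of -0.81 ± 0.20 (SE) narrowly missed the threshold (adjusted p = 0.0602, edgeR). It passed with DESeq2 (adjusted p = 0.0133) and without KO replicate 2 (log2 fold change -0.80, adjusted p = 0.0352, edgeR), and over all alternatives its adjusted p lay between 0.0133 and 0.314.

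Summed over the set, the level was 66.8, 60.2 and 66.0 CPM in KO and 121, 109 and 106 CPM in WT. The make-up of the sum differed as well. C1ra and C1s1 together with Serping1 made up most of it in all libraries, with Serping1 at 17.8% to 20.3% of the sum in KO and 29.3% to 31.2% in WT, and C3 at 7.48% to 9.12% in KO and 15.4% to 21.1% in WT. C1ra, whose level overlapped, made up 29.9% to 35.4% in KO and 16.4% to 21.5% in WT. Per length and over all libraries, Serping1, C1ra and C1s1 stood above 82.1%, 77.6% and 77.0% of the 24034 genes with a count, C3 and Clu above 62.3% and 60.6%, and C4b and C2 above 37.6% and 36.3%. C1ra and C1s1 do not differ in this order beyond the spread of their libraries, nor do C4b and C2.

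Of 48 other complement genes, 21 could be tested, 7 were called lower, 0 higher and 14 not called, with a median log2 fold change of -0.91. Of all tested genes, 2.31% were called lower and 0.365% higher. The called genes were the C1q subunits and receptors. C1qb, which macrophages express, averaged 7.29 ± 1.98 CPM in KO and 34.6 ± 4.46 CPM in WT (SD, n = 3 each), a log2 fold change of -2.27 ± 0.20 (SE, adjusted p = 0.000277, edgeR), and C1qa and C1qc fell with log2 fold changes of -2.02 and -2.67. Of the receptor list, C3ar1, the C3a receptor gene, fell with a log2 fold change of -2.32, and Cd93, once described as a C1q receptor, with -2.18. Itgb2 and Itgam, whose products form complement receptor 3, fell with -2.50 and -2.86 (adjusted p = 0.000346 and 0.0300, edgeR). Itgam had 3 to 5 counts in KO and 19 to 42 in WT and reached the filter on low counts in 0 KO libraries, so that, alone among the 21, it could enter the test only as a gene high in WT, and its call is no support for a difference. It was lost without KO replicate 1 or 3 or without any WT library (adjusted p = 0.0528 to 0.240) and with limma-voom (0.0675), with a lowest value of 0.00188 over the alternatives. C1qbp, the most abundant gene of the receptor list, stood at 69.0 to 74.5 CPM in KO and 62.2 to 68.5 CPM in WT and was not called (adjusted p = 0.646, edgeR).

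The other arms gave no calls with edgeR at the standard filter over all 6 libraries, although 1 or 2 of the 48 genes were called higher under 3 alternatives. Masp1, a protease of the lectin pathway and the most abundant complement gene of these cultures, stood at 539 to 566 CPM in KO and 538 to 590 CPM in WT (log2 fold change -0.07 ± 0.10, SE). Colec12, a collectin scavenger receptor, stood at 210 to 232 CPM in KO and 211 to 226 CPM in WT (log2 fold change 0.00 ± 0.10). Cfp, the gene of properdin, which stabilises the alternative pathway enzyme, stood at 2.20 to 2.72 CPM in KO and 4.11 to 6.08 CPM in WT and did not pass (adjusted p = 0.111, edgeR). Cfd, the gene of factor D, had 1 count in all libraries together, and Hc, C6, C8a, C8b and C9 of the terminal pathway had 0, leaving C8g at 0.740 to 1.18 CPM in KO and 0.767 to 2.43 CPM in WT (adjusted p = 0.543, edgeR).

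The regulators other than Serping1 and Clu gave no calls in that fit either. C4bp, the gene of C4b-binding protein, stood at 1.77 to 4.75 CPM in KO and 3.62 to 4.65 CPM in WT (adjusted p = 0.552, edgeR). Of the membrane regulators, Cr1l, the rodent regulator Crry, stood at 45.9 to 75.0 CPM in KO and 48.2 to 52.9 CPM in WT, and Cd59a, which blocks the pore, at 19.4 to 35.8 CPM in KO and 25.7 to 33.8 CPM in WT.

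**Figure D3:**
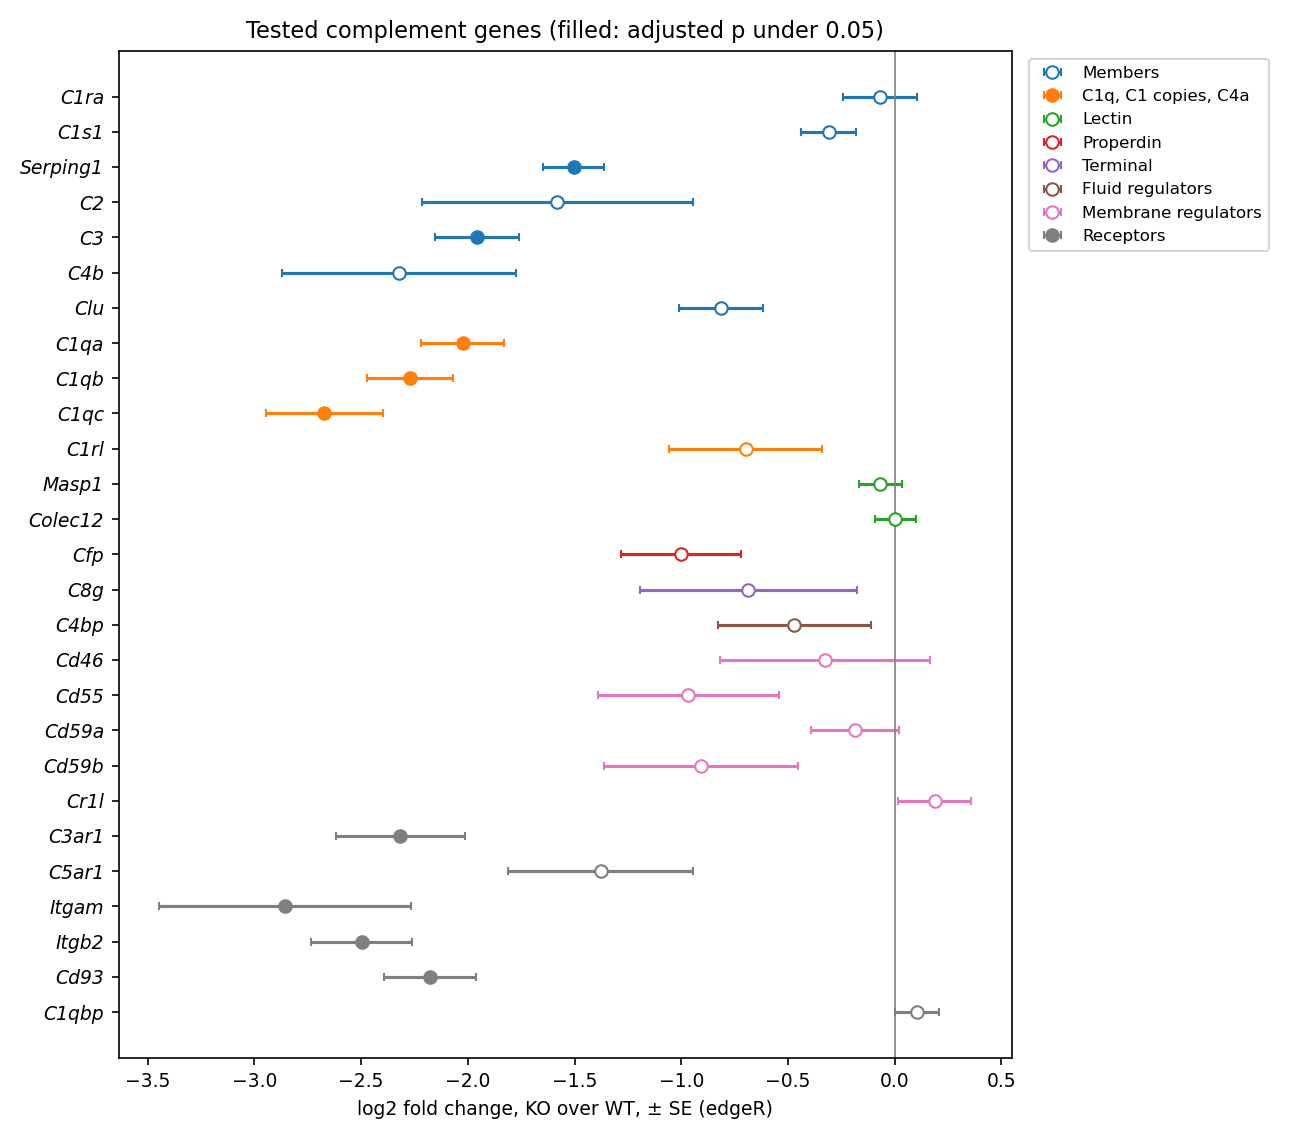
Log2 fold change of KO over WT (x axis, points, with bars for the SE) for the 7 tested members and 20 of the other tested complement genes, grouped by role, with filled points for an adjusted p under 0.05 (edgeR). Filled points are at Serping1 and C3 among the members and at C1q subunits and 4 receptor genes among the rest, while C1ra, Masp1 and Colec12 lie near 0.

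Macrophage markers moved with these genes. Of 18 markers chosen without the C1q genes, 15 could be tested, 11 were called lower, 0 higher, and the median log2 fold change was -1.99. Of all tested genes, 2.31% were called lower and 0.365% higher, which is the background for each marker list given here. Their summed level was 93.8 to 102 CPM in KO and 340 to 393 CPM in WT. No marker was at 0 in all libraries, although Aif1 had at most 1 count in any. Lyz2, lysozyme, averaged 48.6 ± 10.1 CPM in KO and 172 ± 24.0 CPM in WT (SD, n = 3 each). Mrc1, the mannose receptor, averaged 8.16 ± 1.20 CPM in KO and 49.0 ± 1.94 CPM in WT, and Mpeg1, perforin-2 of phagocytes, 4.21 ± 1.47 CPM in KO and 24.7 ± 0.917 CPM in WT. Beside that median, the log2 fold change was -1.96 for C3, -1.50 for Serping1 and -0.07 for C1ra. The part of macrophage transcripts in the changes of C3 and Serping1 was not tested. Stromal markers were called in 1 of 14, Thy1, which fell (log2 fold change -0.81 ± 0.10, adjusted p = 0.00141, edgeR). Markers of 2 skeletal lineages moved as well. Of 7 osteoblast markers 4 could be tested, and 3 rose in KO, namely Sp7, a transcription factor of the bone lineage (log2 fold change 1.91), Alpl, alkaline phosphatase (1.31), and Ibsp, bone sialoprotein (2.60), while Runx2 was not called. The list summed to 77.1 to 86.1 CPM in KO and 58.1 to 70.6 CPM in WT. Of 6 chondrocyte markers 4 could be tested and all of these fell in KO, among them Comp, a cartilage matrix protein (-3.57), and Sox9, the cartilage transcription factor (-1.40), with sums of 409 to 513 CPM in KO and 772 to 822 CPM in WT. Acan, the cartilage proteoglycan gene, had at most 2 counts in any library. Comp missed the filter on low counts in KO replicate 2, as did Ms4a7, a called macrophage marker, in KO replicate 1. Ibsp missed it in WT replicate 1. These genes reached the filter in every library only of the genotype where they were high, and their calls have to be read with that in mind. The part of these lineages in the changes of the complement genes was not tested. Hepatocyte markers summed to 1.27 to 1.73 CPM in KO and 0.822 to 1.62 CPM in WT, with Ttr, Serpina1a and Fgb at 0 in all libraries.

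**Figure D4:**
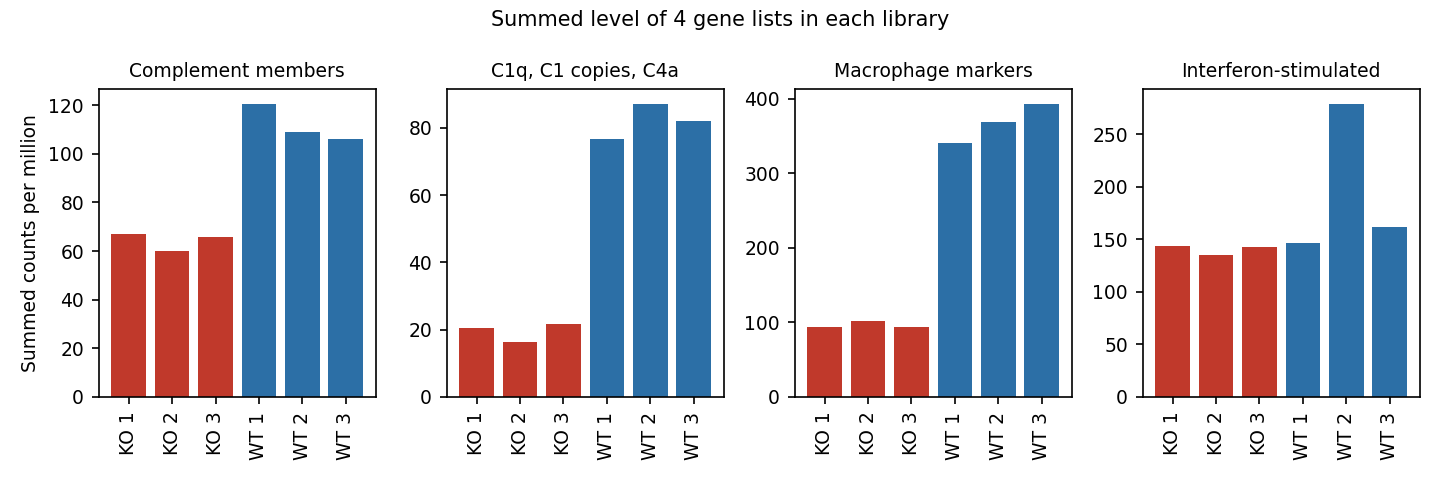
Summed CPM (y axis, bars) of 4 gene lists in each library, with KO in red to the left of WT in blue. The lists are the complement members, C1q with its neighbours in the pathway, macrophage markers and interferon-stimulated genes. All 4 lists sum lower in every KO library than in any WT library. The interferon-stimulated list does so by a small margin, with at most 144 CPM in KO against 146 CPM in WT replicate 1. It is highest in WT replicate 2, at 279 CPM.

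Several complement genes respond to interferon, NF-kB and C/EBP factors in other cells, and genes of these routes were therefore set beside them. Of 20 interferon-stimulated genes, 18 could be tested and 0 were called, with 17 negative log2 fold changes and a median of -0.72. They summed to 135 to 144 CPM in KO, below each WT library, and to 146, 279 and 161 CPM in WT replicates 1, 2 and 3. WT replicate 2 thus stood apart in these genes. In Serping1, C4b and C2 this library was the lowest of WT, and in C3 it was the highest. Without WT replicate 2, Serping1 and C3 still passed. The part of interferon, NF-kB or C/EBP routes in the changes of the complement genes was not tested. Of 16 transcription factor genes, 1 was called lower and 0 higher, beside 2.31% and 0.365% of all tested genes. The called gene was Cebpd, at 77.3 to 138 CPM in KO and 195 to 220 CPM in WT (log2 fold change -0.99 ± 0.18, SE, adjusted p = 0.0153, edgeR). Its relative Cebpb had a log2 fold change of -0.72 ± 0.19 and did not pass (adjusted p = 0.0833, edgeR), nor did Nfkb1 (-0.10 ± 0.11) or Rela (-0.18 ± 0.15).

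The genes whose log2 CPM followed the mean of the 9 members most closely over the 6 libraries are given as a description. Of 8909 other genes averaging 10 CPM or more, 222 had a Pearson correlation over 0.9. The libraries form 2 genotype groups, so a gene that differs between them scores high. The highest were Scara5, a ferritin receptor (r = 0.997), Tinagl1, a basement membrane protein (0.996), Igfbp6, which binds insulin-like growth factor (0.995), Ptgis, prostacyclin synthase (0.995), and Lbp, the lipopolysaccharide-binding acute-phase protein (0.994), with n = 6 libraries that share their depth with the members. Within genotypes, after removal of each group's mean, their correlations were 0.675 to 0.897. Lbp stood at 5.16 to 7.50 CPM in KO and 21.5 to 28.0 CPM in WT, and Scara5 at 13.2 to 15.8 CPM in KO and 44.1 to 55.8 CPM in WT.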

How the data were processed

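The authors deposited 1 table of raw counts per gene for all 6 libraries, with gene coordinates and a gene length (another number than the counts). The labels' protocols name TRIzol for RNA extraction and the NEBNext Ultra kit for libraries, with no statement on strand. The submitters' processing notes name HISAT2, StringTie, SAMtools and the mm9 build, and no source used here names the counter. Coordinates are GRCm38, because start and end equalled those of GENCODE M21 for 53499 of the 54409 identifiers it shares with the table (98.3%). Groups and replicate numbers came from the sample titles.

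Levels are CPM of the library total. Tests used edgeR 4.0.16 (R 4.3.3), the quasi-likelihood test with robust moderation, TMM scaling (factors 0.983 to 1.01), genotype as the only term, and a filterByExpr minimum of 10 counts (15 in total), with Benjamini-Hochberg adjustment over all tested genes at 0.05. The SE was taken from the fold change and the F statistic. On simulated counts for KO against WT over 13705 genes, 68% of changes by 2-fold and 89% of those by 4-fold were recovered, with 18 false calls among 175. That is a larger share of false calls than the threshold of 0.05 sets. The simulation held no library that stood apart as KO replicate 2 did. Chi-square per gene between replicates was 4.52 to 62, so no library repeated another. Other scalings, filters, DESeq2 1.42.0, limma-voom (limma 3.58.1), a replicate block and each library left out were alternatives, and summing near-identical copies was added after seeing the data.

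The members and lists were chosen with earlier results of these data known. Genes named are the members, the other complement genes called or among the most abundant of their list, called transcription factors, the 5 genes most like the members, the 3 most abundant macrophage markers, and others given as members of a list. C1rb, Thy1, Ms4a7, Cebpb, Stat2, Irf9, Nfkb1, Rela, Col1a1 and the hepatocyte, osteoblast and chondrocyte markers were named after their values were seen. Some members of the lists are not reported here.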

Additional observations from a re-analysis of the deposited data

How the results depend on the processing

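Serping1 and C3 were called lower under all 15 alternatives (log2 fold changes of -1.60 to -1.43 and -2.09 to -1.84), and C1s1 and C2 under none of those that tested them (C2 and C4b were removed by the stricter filter). The number of members called lower, 2 of 7, was 4 without the filter on low counts and 4 with DESeq2 (C4b and Clu added), and ranged from 2 to 4 with single libraries left out, the 4 being without KO replicate 2. C4b was also called with limma-voom (adjusted p = 0.0470) and with C4a summed to it (log2 fold change -2.01, adjusted p = 0.0468). In every setting with the filter, C4b could enter only as a gene high in WT, so its calls there are no support for a difference. The C1ra log2 fold change was not called anywhere and ranged from -0.20 to 0.07.

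Over all genes, 366 were called (13.7% of them higher), 883 without the filter (29.2% higher), 656 with DESeq2, and 147 to 610 with single libraries left out. The other complement genes called lower numbered 7, and 6 to 9 under the alternatives. Those called higher numbered 0, but 2 without the filter (one of them C1rb, adjusted p = 0.0391), 1 with DESeq2 and 1 without WT replicate 3. With the replicate number as a block, 331 genes were called and the 2 members stayed called. The labels state no pairing by number. The deviations of same-numbered libraries from their group means correlated at 0.137, -0.106 and -0.192, and not every library correlated best with its own number. With 3 libraries per group and KO replicate 2 far from the others, these correlations cannot exclude a pairing. Depth limits genes such as C2 and C4b, with 2 to 11 counts per KO library. The causes of these changes were not tested.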

Other observations

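C1rb, the copy of C1ra, had 36 counts in KO replicate 3 and 0 to 2 counts in each of the other libraries, while C1ra itself stood at 22.4 CPM in that library against 18.0 and 23.7 CPM in the other KO libraries. C1rb was too low for the standard filter.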
